A study of Rattus norvegicus with 6 samples.

Results

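A set of 10 genes of oxidative drug metabolism was followed in the renal cortex of TCEP-treated rats: the cytochrome P450 genes Cyp1a1, Cyp1b1, Cyp2b1, Cyp2e1, Cyp3a2 and Cyp3a9, their electron donor Por, the flavin monooxygenase gene Fmo1, the aryl hydrocarbon receptor gene Ahr and its target Tiparp. They were given by name, and each was read from the non-control array probes whose accession maps to its symbol. Of these, 9 had such a probe, among 15284 genes named on the array, and Tiparp is not analysed here. Cyp2e1, Fmo1, Por and Ahr were well above background on all 6 arrays, Cyp3a2 on 1 array, and Cyp1a1, Cyp1b1, Cyp2b1 and Cyp3a9 on 0 arrays. The levels of the 4 genes detected throughout overlapped between TCEP and vehicle arrays, while 15.6% of all tested genes did not overlap. Of these 4 genes 0 passed the test, as did 0 of all 11804 tested genes.

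P450 enzymes are haem proteins of the endoplasmic reticulum that insert an oxygen atom into lipophilic substrates, with electrons passed from NADPH by P450 oxidoreductase. Flavin monooxygenases carry out similar reactions on nitrogen and sulfur atoms without haem. Many P450 genes are switched on by the foreign compounds that their products oxidise, through the aryl hydrocarbon receptor (AhR), which drives family 1, and through the nuclear receptors CAR and PXR, which drive families 2B and 3A in liver. In the kidney most oxidation of foreign compounds takes place in the proximal tubule.

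Treatment was given to 3 male Sprague-Dawley rats, an outbred stock bought at 5 weeks of age. They received tris(2-chloroethyl)phosphate (TCEP), a chlorinated organophosphate flame retardant, at 400 mg/kg/day for 4 weeks. The vehicle group was 3 male rats of the same stock and age that received corn oil for 4 weeks, and all rats ate a basal diet. The labels give neither the route nor the vehicle in which TCEP itself was given. RNA of the renal cortex of each rat was hybridised to 1 single-colour Agilent array, and the comparison asks which transcripts differ after TCEP.

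A level below is the log2 processed signal of a probe minus the log2 75th percentile of its array. A difference is TCEP minus vehicle on that scale, and ± gives the SD across a group's 3 arrays. The scanner marked 67.2% to 69.3% of each array's probes as well above background. The lowest signals so marked lay between -6.06 and -5.76 with TCEP and between -6.01 and -5.75 with vehicle. Each probe has its own affinity, so levels are compared between arrays and not between genes. The TCEP arrays shared 1 slide and scan and the vehicle arrays another, so slide and treatment cannot be told apart in any difference given here. The 8 proximal tubule markers, among them Slc34a1, Lrp2 and Cubn, were well above background on every array, with a summed level of 10.98 to 11.16 on TCEP arrays and 11.01 to 11.13 on vehicle arrays. Of the tested markers of each cell type 0 were called, so the directions below are descriptive. The endothelium markers had 1 higher and 4 lower means with TCEP (median -0.06). The mesangium, fibroblast and smooth muscle markers had 3 higher and 4 lower (median -0.06). The 6 distal tubule and collecting duct markers had 1 higher (Umod) and 5 lower means with TCEP (median -0.32). Without TCEP replicate 1 they had 0 higher (median -0.29). Of the 6, Atp6v1b1, Calb1 and Slc26a4 had all TCEP arrays below all vehicle arrays, as did 6.97% of all tested genes. The same 3 were lower at an unadjusted p under 0.05 in the limma fit, as were 4.12% of all tested genes. The summed level of the 6 ran from 9.14 to 9.49 with TCEP and from 9.22 to 9.41 with vehicle. It mostly follows Umod, the brightest, with means of 8.94 with TCEP and 8.91 with vehicle. All 5 podocyte markers (median -0.23) and all 5 macrophage markers (median -0.13) had lower means with TCEP, while without TCEP replicate 1 the podocyte markers had 2 of 5 higher (median -0.13). The 3 tested neutrophil and lymphocyte markers had the list median furthest from 0 among the marker lists, -0.93, all with lower means with TCEP, and -0.50 without TCEP replicate 1. The summed level of the 4 measured was -1.41, -0.36 and -1.08 on TCEP arrays, against -0.32, 1.46 and -1.26 on vehicle arrays. The 3 tested adipocyte markers all had higher means with TCEP (median 0.23, and 0.09 without TCEP replicate 1). The part of these cell types in the differences below was not tested. In RNA of whole cortex, fewer cells of a type and less RNA per cell cannot be told apart.

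The sequences upstream of 3 members are shown as examples of an AhR target, a gene detected on every array and a gene detected on 1 array. They are the 250 bases before the annotated gene start in RefSeq's GRCr8 assembly, which held such an entry for 9 of the 10 genes. Cyp1b1 lies at chr6:21094315-21094564 on the + strand, and capitals mark GCGTG or its reverse complement CACGC, the core that the AhR is known to bind. Cyp2e1 lies at chr1:205269717-205269966 on the + strand, and capitals mark TATAAA, the TATA box. Cyp3a2 lies at chr12:14343858-14344107 on the - strand, and capitals mark TGAACT and its repeat after 3 other bases, a direct repeat spaced in the way known for PXR sites.
Cyp1b1: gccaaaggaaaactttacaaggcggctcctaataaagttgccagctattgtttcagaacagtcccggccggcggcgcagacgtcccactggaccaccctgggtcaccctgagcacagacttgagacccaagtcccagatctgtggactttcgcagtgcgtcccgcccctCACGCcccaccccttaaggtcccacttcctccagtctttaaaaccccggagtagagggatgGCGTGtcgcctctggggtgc
Cyp2e1: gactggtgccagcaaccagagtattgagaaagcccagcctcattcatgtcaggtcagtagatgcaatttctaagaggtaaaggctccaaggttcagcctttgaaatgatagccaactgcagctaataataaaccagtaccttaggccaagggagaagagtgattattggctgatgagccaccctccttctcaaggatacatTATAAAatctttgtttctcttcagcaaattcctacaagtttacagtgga
Cyp3a2: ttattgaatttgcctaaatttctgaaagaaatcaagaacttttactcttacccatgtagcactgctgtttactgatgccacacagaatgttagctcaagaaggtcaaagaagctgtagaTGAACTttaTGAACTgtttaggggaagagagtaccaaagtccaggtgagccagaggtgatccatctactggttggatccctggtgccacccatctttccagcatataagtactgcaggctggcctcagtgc

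Searched on both strands, GCGTG occurred upstream of 4 of the 9 members (Cyp1b1, Cyp2b1, Por and Tiparp) and of 27.2% of 27457 genes. TATAAA occurred upstream of Cyp2e1 alone among the 9, and of 13.1% of all genes. The repeat of TGAACT after any 3 bases occurred upstream of Cyp3a2 alone among the 9, and of 2 genes in all. A match is a description of these letters, and the arrays give no reading of binding.

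One array stood apart for some liver transcripts. TCEP replicate 1 had all 6 genes of a hepatocyte marker list (Alb, Apoa1, Serpina1, Ttr, Fga and Cyp2c11) well above background, against 4 and 2 on the other TCEP arrays and 3, 4 and 3 on the vehicle arrays. Albumin (Alb), the main secreted protein of hepatocytes, was at 0.85 on TCEP replicate 1, -6.56 and -6.99 on the other TCEP arrays, and -7.80, -6.34 and -6.38 on the vehicle arrays. Transthyretin (Ttr), a plasma carrier protein made in liver, was at 0.30 on TCEP replicate 1, -7.14 and -6.73 on the other TCEP arrays, and -8.14, -6.99 and -8.00 on the vehicle arrays. Both were thus well above background on that array alone, with each of their further probes. Apoa1 and Serpina1 were also highest on TCEP replicate 1, at -4.09 and -2.69. Fga and Cyp2c11, well above background on all arrays, were not highest there. Fga was at 0.77 on TCEP replicate 1, against 1.11 and 1.19 on vehicle replicates 2 and 3. Cyp2c11 was at 0.88, against 1.31 on TCEP replicate 3. The summed level of the list includes both. It was 2.76 on TCEP replicate 1, 1.56 and 1.96 on the other TCEP arrays and 1.19 to 1.85 on the vehicle arrays. Values without that array are given beside many of the results below.

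**Figure D1:**
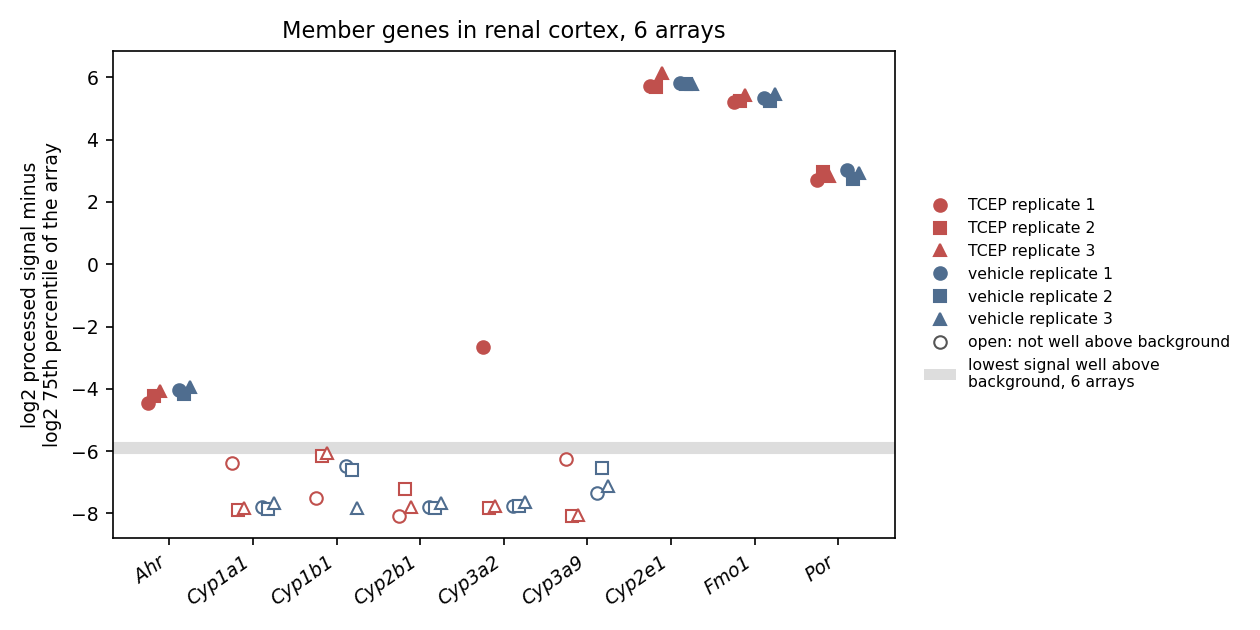
Level of the 9 measured member genes on each array, as log2 processed signal minus the log2 75th percentile of the array, TCEP left and vehicle right for each gene. Filled points are well above background, open points are not, and the grey band spans the lowest signals well above background. Cyp3a2 has 1 filled point, at -2.65 on TCEP replicate 1.

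The receptor gene Ahr, whose product binds planar aromatic compounds and moves to the nucleus, was dim but detected on all arrays. Its level was -4.46, -4.24 and -4.05 on TCEP arrays, against -4.03, -4.17 and -3.93 on vehicle arrays. TCEP replicate 1 was the lowest array, and the groups overlapped. The means were -4.25 ± 0.20 with TCEP and -4.04 ± 0.12 with vehicle (SD, n = 3 each), a difference of -0.21 (SE 0.12, 95% confidence interval -0.51 to 0.10, limma adjusted p = 0.700). Without TCEP replicate 1 the difference was -0.10, and it was -0.06 with normexp background correction.

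The AhR targets among the members were not detected. Cyp1a1, the hydroxylase induced most strongly by AhR ligands, was at -6.37, -7.87 and -7.82 on TCEP arrays, against -7.80, -7.85 and -7.67 on vehicle arrays, all not well above background. TCEP replicate 1 was the highest array and still lay below every signal so marked there. Cyp1b1, which oxidises steroids and polycyclic hydrocarbons, had 2 probes, neither well above background on any array. The brighter lay between -7.51 and -6.07 on TCEP arrays and between -7.82 and -6.49 on vehicle arrays, a spread seen in both groups. Cyp1a1 and Cyp1b1 therefore have only an upper bound in both groups, and no fold change is given.

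The CAR- and PXR-inducible members were likewise mostly not well above background. Cyp2b1, the phenobarbital-inducible P450 of rat liver, lay between -8.07 and -7.22 on TCEP arrays and between -7.82 and -7.65 on vehicle arrays. Cyp3a9, a family 3A enzyme, was at -6.27, -8.08 and -8.04 on TCEP arrays, against -7.35, -6.55 and -7.12 on vehicle arrays. Neither gene was well above background on any array. Cyp3a2, a male-predominant P450 of rat liver and the gene with the direct repeat shown above, was at -2.65 on TCEP replicate 1, -7.84 and -7.77 on the other TCEP arrays, and -7.75, -7.75 and -7.64 on the vehicle arrays. It was thus measured on 1 of 3 TCEP arrays and 0 of 3 vehicle arrays, and it was not tested. On the 5 arrays other than TCEP replicate 1 it was not well above background, so no difference is given for them.

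The array with the Cyp3a2 signal was the one with the albumin and transthyretin signals. On it 5 of the 38 measured genes of P450 families 1 to 3 were well above background while the other 5 arrays showed none of them, namely Cyp3a2, Cyp2c13, Cyp2c6v1, Cyp2c7 and Cyp3a23-3a1. The other TCEP arrays had 0 and 0 such genes of their own, and the vehicle arrays 0, 1 and 0. Cyp2c13, a male-specific liver P450, was at -3.90 on TCEP replicate 1, -7.82 and -7.77 on the other TCEP arrays, and -8.13 to -7.83 on the vehicle arrays. Cyp2c6v1, a further family 2C gene, was at -3.85 on TCEP replicate 1, -7.75 and -7.70 on the other TCEP arrays, and -8.06 to -7.79 on the vehicle arrays. Both thus lay far above their other arrays on TCEP replicate 1. Cyp3a23-3a1, a family 3A gene inducible in liver, was at -5.15 on TCEP replicate 1, -8.10 and -8.05 on the other TCEP arrays, and -8.31 to -8.06 on the vehicle arrays. For Cyp2c7, which has 6 probes, this count rests on the brightest probe by mean, and another of its probes was also well above background on vehicle replicate 3. Outside these 5, Cyp2d3 was well above background on 2 TCEP arrays alone, at -3.86, -5.66 and -5.45 on TCEP arrays against -5.64, -5.62 and -5.71 on vehicle arrays, and Cyp2j10 on 1 vehicle array alone. The part of liver RNA in the Cyp3a2 signal was not tested.

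**Figure D2:**
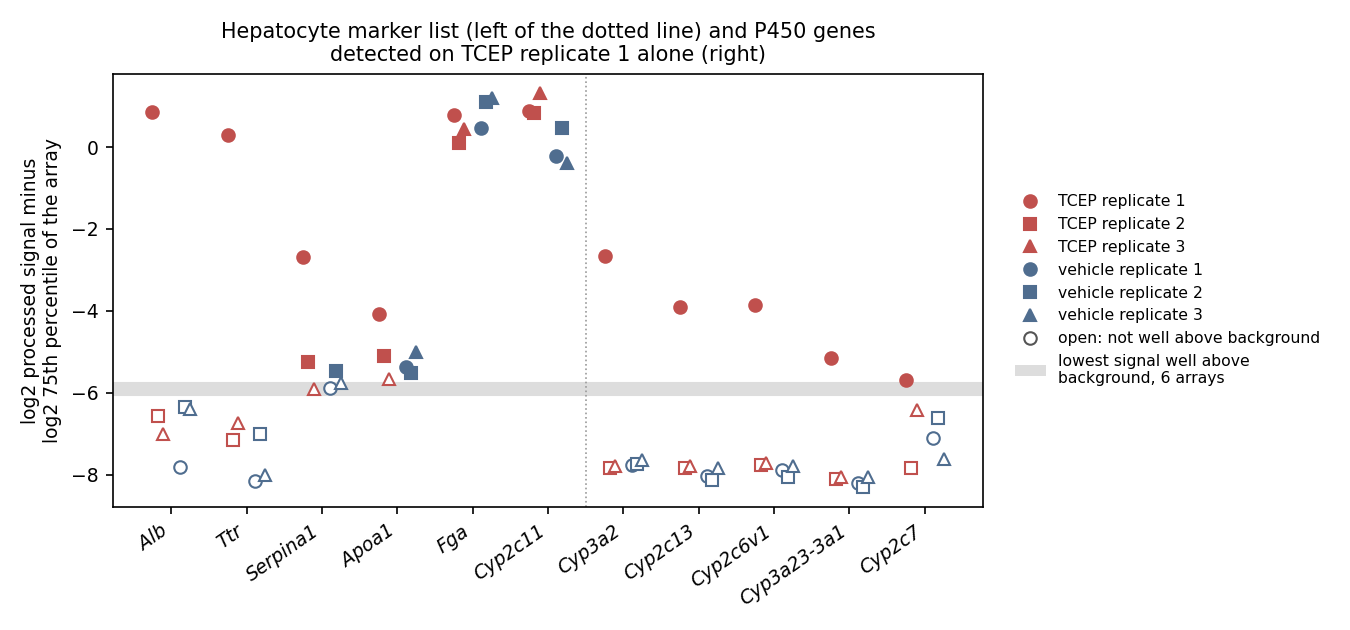
Level of the 6 hepatocyte markers and of 5 P450 genes on each array, on the same log2 scale, TCEP left and vehicle right for each gene, open points not well above background. Alb, Ttr and the 5 P450 genes right of the dotted line are filled on TCEP replicate 1 alone, while Fga and Cyp2c11 are filled on all 6 arrays.

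Cyp2e1, which oxidises ethanol and many small halogenated solvents, was detected on all arrays at levels that differed little. It was at 5.73, 5.70 and 6.14 on TCEP arrays, against 5.82, 5.78 and 5.79 on vehicle arrays. TCEP replicate 3 was the highest, and the other TCEP arrays lay below all vehicle arrays. The means were 5.85 ± 0.25 with TCEP and 5.80 ± 0.02 with vehicle (SD, n = 3 each), a difference of 0.06 (SE 0.13, limma adjusted p = 0.924). Its 95% confidence interval, -0.26 to 0.38, runs from 0.83 to 1.30 times the vehicle level. Without TCEP replicate 3 the difference was -0.09.

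Fmo1, which oxygenates tertiary amines and thioethers, was at 5.19, 5.24 and 5.44 on TCEP arrays, against 5.32, 5.25 and 5.46 on vehicle arrays. The lowest 2 values were TCEP arrays, but the ranges nearly coincided. The difference was -0.05 (SE 0.10, limma adjusted p = 0.901), with a 95% confidence interval of 0.82 to 1.14 times the vehicle level. Por, which supplies electrons to all microsomal P450 enzymes and carries 3 GCGTG matches upstream, was at 2.69, 2.95 and 2.82 on TCEP arrays, against 3.01, 2.74 and 2.92 on vehicle arrays. The groups overlapped. The difference was -0.07 (SE 0.10, limma adjusted p = 0.876), with an interval of 0.80 to 1.14 times the vehicle level.

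Read together, 1 of the 4 tested members had a higher mean with TCEP and 3 a lower one, with a median difference of -0.06, beside 0.01 over all 11804 tested genes. With limma and Benjamini-Hochberg adjustment over those genes, 0 members were called, against a background of 0% (0 of 11804). At an unadjusted p under 0.05 there were 0 members and 8.33% of all tested genes. No member had all TCEP arrays on one side of all vehicle arrays, a pattern shown by 15.6% of all tested genes. The SD within groups was 0.18 for Cyp2e1, 0.17 for Ahr, 0.13 for Por and 0.12 for Fmo1, beside a median of 0.13 over all tested genes.

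The wider P450 families 1 to 3 showed which relatives the cortex does express. Of 52 protein-coding genes in RefSeq, 38 had a named probe, 13 of these were not well above background on any array and 17 were tested. With TCEP 12 of the 17 had higher and 5 lower means, with a median difference of 0.10, and 0 were called. The median was 0.06 without TCEP replicate 1, 0.05 without vehicle replicate 3 and 0.23 without vehicle replicate 1. On TCEP replicate 1, 8 of the 17 had their highest value, as did 19.3% of all tested genes. Cyp2c23, an arachidonate epoxygenase of rat kidney, was at 8.27, 8.44 and 8.47 on TCEP arrays, against 8.53, 8.41 and 8.39 on vehicle arrays. Its groups overlapped, with a difference of -0.05 (SE 0.08) and a 95% confidence interval of -0.25 to 0.16, and the difference was 0.01 without TCEP replicate 1.

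Cyp2c11, a male-specific steroid and drug hydroxylase of rat liver, was the family member with the smallest unadjusted p. It was at 0.88, 0.84 and 1.31 on TCEP arrays, against -0.22, 0.47 and -0.38 on vehicle arrays. All TCEP arrays lay above all vehicle arrays, as for 8.63% of all tested genes, and TCEP replicate 1 did not stand out. The means were 1.01 ± 0.26 with TCEP and -0.04 ± 0.45 with vehicle (SD, n = 3 each), a 2.08-fold difference (95% confidence interval 1.35 to 3.19, unadjusted p = 0.00615) that was not called (limma adjusted p = 0.535). Without TCEP replicate 1 the log2 difference was 1.12. It was the 1 gene of the families at an unadjusted p under 0.05, a share to be set beside the 4.21% of all tested genes that were higher at that level.

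Among other family members, Cyp2d1, Cyp2d5 and Cyp2b3 varied widely within both groups, with pooled SDs of 0.61, 0.64 and 0.62. Cyp2t1 varied little, with 0.06. Cyp2d1 and Cyp2d5, drug hydroxylases whose near-identical sequences can share probes, had their highest values on the same array. Cyp2d1 was at 6.73, 5.70 and 5.29 on TCEP arrays, against 4.97, 5.84 and 5.23 on vehicle arrays, with a difference of 0.56 (SE 0.41). Cyp2d5 was at 6.93, 5.81 and 5.44 on TCEP arrays, against 5.10, 6.03 and 5.37 on vehicle arrays, with a difference of 0.56 (SE 0.44). For both, TCEP replicate 1 was the highest array and vehicle replicate 2 the next, and without TCEP replicate 1 the differences were 0.15 for Cyp2d1 and 0.12 for Cyp2d5. The epoxygenase gene Cyp2j3 had -0.36, -1.28 and -1.48 on TCEP arrays, against -1.71, -1.47 and -1.91 on vehicle arrays. Its difference was 0.66 (SE 0.31, unadjusted p = 0.0755), and 0.32 without TCEP replicate 1. For Cyp2b3 the difference was 0.63 (SE 0.42), and 0.19 without that array, while Cyp2d2 differed by -0.21 (SE 0.21) and Cyp2t1 by 0.10 (SE 0.07). Cyp2b2, the close relative of Cyp2b1, was detected on all arrays by 1 of its 5 probes. That probe differed by 0.04 (SE 0.11), and by -0.06 without TCEP replicate 1. Each further probe of Cyp2b2 was well above background on TCEP replicate 1. Some were so marked there alone, at -4.54 and -4.62, and the rest also on vehicle replicate 1.

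Among the other flavin monooxygenases, Fmo9 was not well above background on any array. Fmo4 was at 2.85, 2.60 and 2.36 on TCEP arrays, against 2.29, 2.42 and 2.26 on vehicle arrays. The groups overlapped, with a difference of 0.28 (SE 0.14, limma adjusted p = 0.647), and 0.15 without TCEP replicate 1. Fmo2, the form known from lung, was at 3.10, 3.57 and 3.37 on TCEP arrays, against 3.14, 3.47 and 3.75 on vehicle arrays, with a difference of -0.11 (SE 0.19), and 0.02 without TCEP replicate 1. Fmo5 was at 0.65, -0.28 and -0.41 on TCEP arrays, against 0.42, -0.22 and -0.33 on vehicle arrays, with a difference of 0.03 (SE 0.34), and -0.30 without TCEP replicate 1. In both genes the groups overlapped, and replicate 1 of each group was the highest array of its group for Fmo5.

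**Figure D3:**
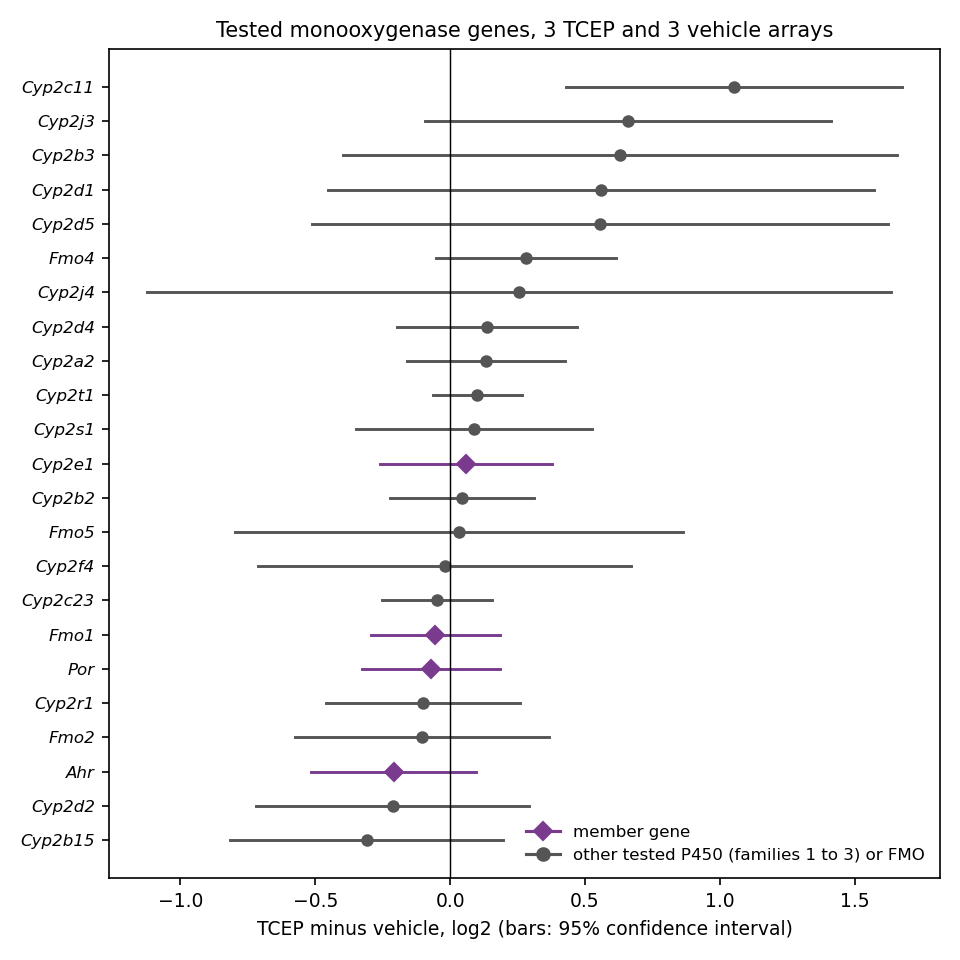
Difference TCEP minus vehicle on the log2 scale for each tested gene of P450 families 1 to 3, 4 flavin monooxygenases and the members Por and Ahr, with the 95% confidence interval of the moderated limma fit (3 arrays a group). The 4 member genes lie between -0.21 and 0.06 with intervals that include 0, and of the genes drawn the interval of Cyp2c11 alone lies wholly above 0.

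The partners of the AhR were detected on all arrays. Of 8 genes of the AhR complex 4 had higher and 4 lower means with TCEP, with a median of 0.01, and 0 were called. Hsp90ab1, a chaperone that holds the receptor ready for ligand, was at 5.29, 5.29 and 5.25 on TCEP arrays, against 5.51, 5.63 and 5.71 on vehicle arrays. All TCEP arrays lay below all vehicle arrays, as for 6.97% of all tested genes. The difference was -0.34 (SE 0.07, unadjusted p = 0.00363, limma adjusted p = 0.533), while its further detected probes gave -0.17 to -0.06. At an unadjusted p under 0.05 it was the 1 gene of the list, beside 4.12% of all tested genes that were lower at that level. Hsp90aa1, the stress-inducible form, differed by -0.23 (SE 0.09), and its further probes by -0.18 to 0.03.

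Of 8 AhR targets listed, Cyp1a1, Cyp1a2 and Cyp1b1 were not well above background on any array, Tiparp had no named probe and 4 were tested. All 4 had higher means with TCEP, as did 52.5% of all tested genes, with a median of 0.53, and 0 were called. Without TCEP replicate 2 the median was 0.35. Ahrr, the repressor that the AhR induces against itself, was at -1.69, -0.78 and -1.49 on TCEP arrays, against -2.24, -1.62 and -1.82 on vehicle arrays. TCEP replicate 1 lay just below vehicle replicate 2, and the difference was 0.58 (SE 0.28, unadjusted p = 0.0823, limma adjusted p = 0.647). Aldh3a1, an aldehyde dehydrogenase of the AhR battery, differed by 0.15 (SE 0.09), while its other detected probe differed by -0.08. Nqo1 and Ugt1a6, which NRF2 also drives, differed by 0.60 (SE 0.31) and 0.49 (SE 0.13). For Ugt1a6 the unadjusted p was 0.00853 and the limma adjusted p 0.535. It was the 1 gene of the list higher at an unadjusted p under 0.05, as were 4.21% of all tested genes. All TCEP arrays of Ugt1a6 lay above all vehicle arrays, as for 8.63% of all tested genes. The 4 genes of this list with a detected signal were thus those outside family 1.

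The nuclear receptors of foreign compounds were present in the cortex. Of 10 tested receptors and partners 7 had higher and 3 lower means with TCEP, with a median of 0.12, and 0 were called. Nr1i2, which encodes PXR, was at 2.42, 2.61 and 2.69 on TCEP arrays, against 2.42, 2.33 and 2.39 on vehicle arrays, all TCEP arrays lying above all vehicle arrays by the unrounded values. That pattern was shown by 8.63% of all tested genes. The difference of Nr1i2 was 0.19 (SE 0.09, limma adjusted p = 0.634), and 0.04 with normexp background correction. Nr1i3, which encodes CAR and was dim, had -4.43, -5.01 and -4.97 on TCEP arrays, against -5.45, -5.09 and -5.39 on vehicle arrays. Its difference was 0.51 (SE 0.19, unadjusted p = 0.0362, limma adjusted p = 0.576). It was 0.32 without TCEP replicate 1 and 0.05 with normexp background correction, and the other 3 of its 4 probes were not well above background on any array. The glucocorticoid receptor gene Nr3c1 differed by 0.14 (SE 0.06), while its further detected probes gave -0.03 to 0.05. The coactivator gene Ppargc1a differed by -0.35 (SE 0.14). All its TCEP arrays lay below all vehicle arrays, as for 6.97% of all tested genes. Nr1i3 and Nr3c1, like Nr1i2, had all TCEP arrays above all vehicle arrays. Thus 3 of the 10 genes lay wholly above and 1 wholly below.

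Of 16 CAR and PXR targets, 8 were tested, and 5 were not well above background on any array. Of the 8, 6 had higher and 2 lower means with TCEP, with a median of 0.07, and 0 were called. The median was 0.03 without TCEP replicate 1, with 4 of 8 higher, and 0.14 without TCEP replicate 2. Abcc2, an apical efflux pump for conjugates, was at 1.57, 2.26 and 2.21 on TCEP arrays, against 1.57, 1.33 and 1.60 on vehicle arrays. TCEP replicate 1 lay within the vehicle range, and the difference was 0.51 (SE 0.20, unadjusted p = 0.046, limma adjusted p = 0.592). Ugt1a1, the bilirubin glucuronosyltransferase, differed by 0.53 (SE 0.19, unadjusted p = 0.0302, limma adjusted p = 0.561), and its groups overlapped. Abcc2 and Ugt1a1 were the 2 genes of the list higher at an unadjusted p under 0.05, as were 4.21% of all tested genes. Abcc3 differed by 0.09 (SE 0.09).

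Electron supply and microsomal partners gave 2 higher and 7 lower means among 9 tested genes, Por included, with a median of -0.07 (-0.01 without TCEP replicate 1, with 4 of 9 higher, and -0.13 without TCEP replicate 2), and 0 were called. Cyb5r3, the NADH-dependent reductase of cytochrome b5, differed by -0.25 (SE 0.12), and Ephx1, the microsomal epoxide hydrolase, by -0.11 (SE 0.17), and by 0.06 without TCEP replicate 1. Haem, the cofactor of every P450, gave a one-sided count. All 12 genes of its synthesis and breakdown had higher means with TCEP, as did 52.5% of all tested genes, with a median of 0.12, and 0 were called. Without TCEP replicate 1 the count was 11 of 12 and the median 0.13, while without TCEP replicate 3 the median was 0.07.

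Within the haem list the biliverdin reductase gene Blvrb was at 3.28, 3.22 and 3.32 on TCEP arrays, against 2.88, 3.10 and 3.00 on vehicle arrays. All its TCEP arrays lay above all vehicle arrays, as for 8.63% of all tested genes. The difference was 0.28 (SE 0.08, unadjusted p = 0.0121, limma adjusted p = 0.535). Ppox, an oxidase late in haem synthesis, differed by 0.23 (SE 0.07, unadjusted p = 0.0216), Blvra by 0.43 (SE 0.23) and Urod by 0.11 (SE 0.06). Alas1, the first enzyme of haem synthesis and a CAR target in liver, was at 4.60, 4.77 and 5.15 on TCEP arrays, against 4.79, 4.67 and 4.57 on vehicle arrays. Its groups overlapped, with a difference of 0.17 (SE 0.15), which was 0.29 without TCEP replicate 1 and 0.01 without TCEP replicate 3.

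**Figure D4:**
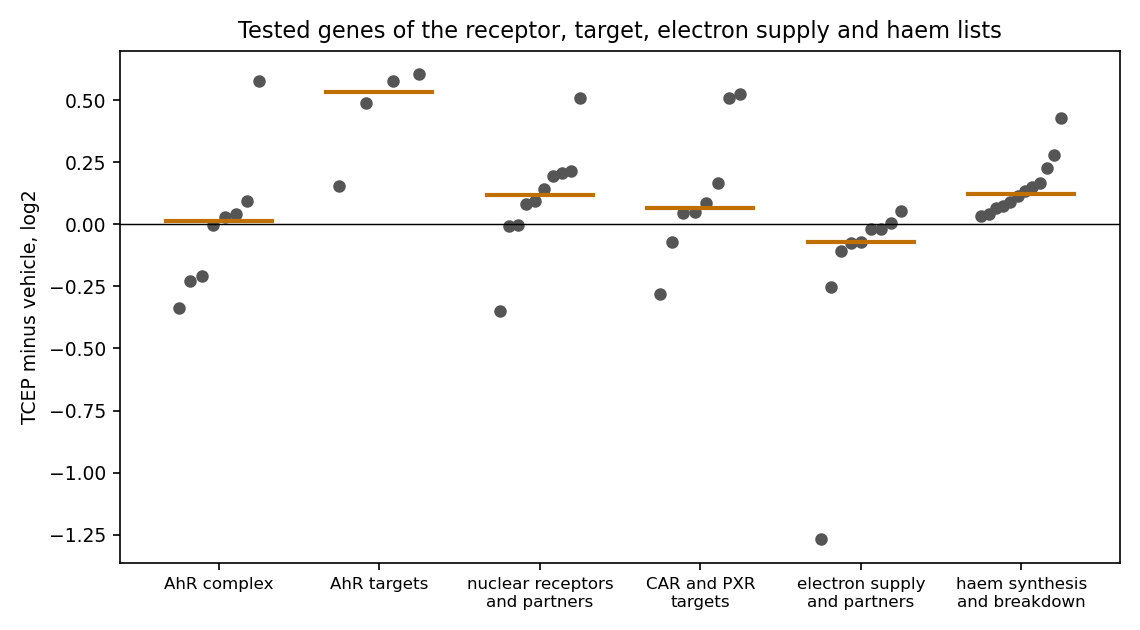
Difference TCEP minus vehicle on the log2 scale for each tested gene (points) of 6 gene lists, with the median of each list as a bar. The AhR target list has the highest median, 0.53 over 4 genes, the haem list has all 12 points above 0, and the lowest point, -1.27, is Ephx2.

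Ahr had the largest absolute difference among the tested members. The 3 tested genes whose profile over the 6 arrays lay nearest to it, each profile centred on its own mean, were Zfp955a, Stat6 and Nrap, at root mean square distances of 0.030, 0.033 and 0.037 on the log2 scale. Stat6, a transcription factor of interleukin signalling, was at -2.15, -1.94 and -1.79 on TCEP arrays, against -1.70, -1.92 and -1.68 on vehicle arrays. As for Ahr, TCEP replicate 1 was its lowest array and vehicle replicate 3 its highest.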

How the data were processed

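Total RNA of the renal cortex was labelled with Cy3 and hybridised to 1-colour arrays, per the labels' protocols. The deposited scanner output was made with Agilent Feature Extraction 10.7.1.1, per the file headers. The processed signal is an intensity that was background-subtracted and detrended within an array, per the file headers, and not scaled between arrays. Spot flags were deposited as other values of 0 or 1. The deposited series matrix holds the same signal divided by a constant per array, within 0.15% of the array's 75th percentile. Each column's median lay between 0.104 and 0.107.

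Processed signals were taken to log2 after division by the 75th percentile of their array. Probes were named through unversioned accessions in RefSeq's GRCr8 gene table, 27453 of 61645 (44.5%), after 12 outlier spots were left out. A gene was its brightest probe, and it was tested if that probe was marked well above background throughout 1 or both groups (11804 genes). limma 3.58.1 in R 4.3.3 compared the groups, two-sided, with Benjamini-Hochberg adjustment, a threshold of 0.05 and 5.93 degrees of freedom. The procedure was tested on simulated data. Figures used matplotlib 3.10.9 and Python 3.11.15.

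The members and lists were chosen with earlier results of these data known. Named are the members, up to 4 genes per list with the smallest p, the 5 brightest genes of the P450 and flavin monooxygenase families, genes of those families detected in 1 group alone and the 3 genes nearest in profile to the member with the largest difference. Replicates are separate rats, and 3 per group limits the precision. A gene that the naming rule selected is not reported here.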

Additional observations from a re-analysis of the deposited data

How the results depend on the processing

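The count of members called was 0 under all 16 alternative settings, and the lowest adjusted p of a tested member under any of them was 0.581 (Ahr). The median difference of the tested members lay between -0.12 and -0.01 when an array was left out, and was 0.06 with no filter on dim probes, where 9 members enter. The count of called genes over the whole array was 0 under each setting except without TCEP replicate 3, where it was 1 (Dio2), so that leaving out an array gave 0 to 1. Of 592 values of named genes under alternatives, 14 turned sign and 0 passed the threshold. With normexp on the median spot signal the difference was -0.0936 for Cyp2e1, -0.0385 for Fmo5, 0.0393 for Ephx1 and -0.0244 for Aldh3a1. Leaving out an array gave ranges with both signs for Cyp2e1 (-0.0857 to 0.14), Fmo1 (-0.13 to 0.00401), Fmo2 (-0.26 to 0.0444), Fmo5 (-0.30 to 0.27), Cyp2c23 (-0.0879 to 0.0136), Cyp2d2 (-0.35 to 0.0269) and Ephx1 (-0.21 to 0.0593). The cause was not tested. Under quantile normalization and without scaling between arrays no named gene turned sign. The labels do not say that the replicate numbers pair the rats. Deviations of same-numbered arrays correlated at -0.15, -0.10 and 0.23 for numbers 1 to 3. Those of differently numbered arrays correlated at -0.33 to 0.37. With 3 arrays a group these values cannot decide whether rats were paired. With the replicate number as a block 0 genes and 0 members were called, and the members' median was -0.06. Slide could not be a term. Genes near background (Ahr, Nr1i3) are limited by signal over background, and in genes not well above it no difference could be detected.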

Other observations

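The genes that lead the list of transcripts well above background on TCEP replicate 1 alone were secreted liver proteins, chosen here after their values were seen. They are Obp3, at 1.25 on that array and between -7.97 and -7.73 on the other 5, Mup5, of the major urinary protein family, at -0.08 against -7.87 to -7.62, Rup2 at -0.57 against -8.06 to -7.84, and the protease inhibitor Mug1 at -1.68 against -8.15 to -7.83. Cyp3a2 ranked 12 by its lead over the highest other array, 4.99 on the log2 scale. In all, 106 genes were well above background on TCEP replicate 1 alone, against 23 and 33 on the other TCEP arrays and 40, 90 and 71 on the vehicle arrays. Of these, the genes more than 4-fold above every other array numbered 27 on TCEP replicate 1, 7 and 7 on the other TCEP arrays, and 2, 10 and 42 on the vehicle arrays, so vehicle replicate 3 had the most by that count.

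Ephx2, the soluble epoxide hydrolase that opens the epoxides made by Cyp2c and Cyp2j enzymes, fell into 2 levels within each group. It was at 2.28, -2.27 and -1.81 on TCEP arrays, against -2.20, 1.86 and 2.35 on vehicle arrays, with well above background signal on all 6. The difference of -1.27 (SE 1.68) had a 95% confidence interval of -5.38 to 2.84, and it was -2.71 without TCEP replicate 1.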
